A study of Mus musculus with 4 samples.

Results

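The genes described here are 42 mouse genes whose products process peptide hormones, make up the dense-core secretory granule, or dock, prime and fuse it. They were chosen by name, from what their products do, out of 21887 protein-coding genes, and all 42 were found by symbol in RefSeq's gene table for GRCm38.p6. Each was examined for binding of NKX2.2, a homeodomain transcription factor of the endocrine pancreas, in alphaTC6, a mouse line of glucagon-producing alpha cells. The cells were wild type by their label and are a single cultured line, so they stand for alpha cells only as far as that line does. The study holds 2 NKX2.2 ChIP samples and 2 input samples, ChIP being the enrichment of factor-bound DNA with an antibody. No value per sample was analysed: the authors' outcome is 1 list of peak summits, the base of highest enrichment in each peak, with a score per peak. Depth and replicate error are therefore unknown, and a gene without a summit is one where no peak was called. A list of bound positions also cannot check the cell type against expressed markers.

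Peptide hormones are made as long precursors and cut inside granules as these mature. In alpha cells the convertase encoded by Pcsk2 releases glucagon from proglucagon, while the related convertase encoded by Pcsk1 releases GLP-1, the main product in intestinal L cells. Granules are brought to the membrane by Rab GTPases, primed by Munc13, RIM and CAPS proteins, and fused by SNARE proteins when synaptotagmins sense calcium.

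Of the 42 genes, 24 had a summit in the gene or within 10 kb of it, 57.1%, against 25.8% of all protein-coding genes. Long genes hold more summits, and these genes are long, with a median of 50.2 kb. Among the 200 protein-coding genes nearest in length to each member, the share with a summit averaged 32.3%, which adds up to 13.6 genes over the 42. The members also held more summits per gene, with a mean of 1.1 against 0.535 in genes of similar length. Since the genes were chosen with results of these data known, no test was made of this difference.

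The members' share stood above the background in each of 4 classes of gene length with equal numbers of genes. In the shortest class, up to 5.67 kb, 3 of 5 members had a summit, against 14% of all genes of that class. These 5 members, of 3.85 to 5.66 kb, were among its longer genes, and genes of similar length averaged 21.9%. In the second class 4 of 7 members had one, against 26.0% of all genes. In the third it was 3 of 6, against 27.2%, and in the longest, from 44.3 kb up, 14 of 24, against 36.1%. The few members in the first 3 classes leave their shares coarse. Inside the gene itself, without flanks, 15 members held a summit, 35.7%, against 13.4% of all genes and 22.1% of genes of similar length.

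The granule protein group and the complexin and synaptotagmin group had the highest shares, and the prohormone processing group the lowest. Of the 7 granule protein genes 5 had a summit, against an average of 27.7% in genes of similar length. Of the 9 complexin and synaptotagmin genes 6 had one, against 32.2%. The 5 SNARE genes had 3, against 24.1%, and the 9 Rab and effector genes had 5, against 32.1%. The 6 priming genes had 3, against 41.3% for genes of their length, and the 6 processing genes had 2, against 35.8%. These 2 backgrounds add up to 2.48 and 2.15 genes, so both groups were close to them. Differences between these groups were not tested.

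**Figure D1:**
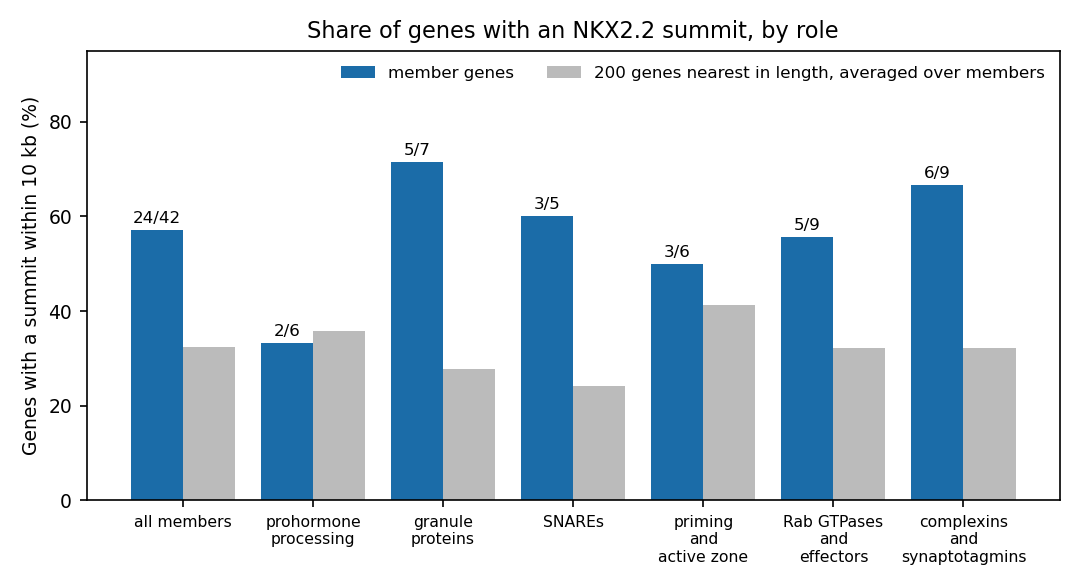
Share of genes with a summit in or within 10 kb, in percent, for all 42 members and for each role group (blue, with the number of genes), beside the average share among the 200 protein-coding genes nearest in length to each member (grey). Prohormone processing, at 2 of 6 genes, is the group whose blue bar does not exceed the grey one. The bars also count summits that lie nearer to another gene.

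For 4 members the start site is given and a summit lay in the promoter window, the 250 bases before the start and the 50 from it on. These promoters, taken from RefSeq (GRCm38.p6), are shown because they are the members with a summit at a known start. They belong to Ptprn (chr1:75264159-75264458), Scg2 (chr1:79439977-79440276), Rab3d (chr9:21918134-21918433) and Syt1 (chr10:109010926-109011225). All 4 genes lie on the minus strand, and each sequence runs 5′ to 3′ along the gene, with the start at base 251. Capitals mark matches, on either strand, to 3 motifs. These are the core of NKX2 sites, AAGTG, with a longer form that contains it, TNAAGTG; a form bound by KLF proteins, CCNCNCCC; and the cAMP response element, TGACGTCA.
Ptprn: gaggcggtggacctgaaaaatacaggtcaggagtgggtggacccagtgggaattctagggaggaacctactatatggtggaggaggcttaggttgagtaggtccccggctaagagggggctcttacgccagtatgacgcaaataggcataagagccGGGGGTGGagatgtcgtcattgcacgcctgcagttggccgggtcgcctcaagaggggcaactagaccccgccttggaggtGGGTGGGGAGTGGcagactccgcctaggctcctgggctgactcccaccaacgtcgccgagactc
Scg2: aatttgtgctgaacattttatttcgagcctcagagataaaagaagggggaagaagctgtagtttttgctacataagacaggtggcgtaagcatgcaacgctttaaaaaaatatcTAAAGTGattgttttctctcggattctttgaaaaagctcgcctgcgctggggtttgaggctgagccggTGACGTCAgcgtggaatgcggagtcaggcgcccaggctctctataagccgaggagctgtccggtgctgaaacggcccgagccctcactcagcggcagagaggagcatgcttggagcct
Rab3d: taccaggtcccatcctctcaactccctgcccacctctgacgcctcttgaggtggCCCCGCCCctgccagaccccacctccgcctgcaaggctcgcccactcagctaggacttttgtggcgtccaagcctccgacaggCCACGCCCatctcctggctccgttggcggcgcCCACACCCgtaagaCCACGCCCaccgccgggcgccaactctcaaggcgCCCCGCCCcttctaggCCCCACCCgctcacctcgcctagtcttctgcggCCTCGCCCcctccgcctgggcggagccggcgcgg
Syt1: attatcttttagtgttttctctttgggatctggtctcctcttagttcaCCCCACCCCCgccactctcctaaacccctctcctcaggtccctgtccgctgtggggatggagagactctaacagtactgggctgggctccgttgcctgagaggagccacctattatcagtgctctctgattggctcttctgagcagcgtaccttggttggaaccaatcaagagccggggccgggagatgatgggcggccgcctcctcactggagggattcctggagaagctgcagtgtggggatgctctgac

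In Scg2, which encodes the granule protein secretogranin II, the summit was base 190 of the window, 61 bases before the start, and its score was 16.0. Base 190 is also the last base of the cAMP response element, which spans bases 183 to 190. The longer NKX2 form ends at base 121, 69 bases before the summit. Scg2 was the only one of the 4 windows with a match to the NKX2 core.

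In Rab3d, a Rab GTPase of secretory granules, the summit was base 201, 50 bases before the start, with a score of 15.9. The window has a GC content of 71.0% and holds 7 matches to the KLF form, the closest ending 10 bases before the summit. In Ptprn, which encodes the granule membrane protein IA-2, the summit was base 100, 151 bases before the start, with a score of 17.2. Another start of the gene lies further upstream, so that this summit is also 138 bases inside its outermost 5′ end. The window holds 3 KLF matches, the closest beginning 57 bases after the summit. In Syt1, a calcium sensor of fusion, the summit was base 162, 89 bases before the start. Its score of 4.09 was at the 5.5th percentile of all placed summits, and its 2 overlapping KLF matches end over 100 bases from the summit.

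**Figure D2:**
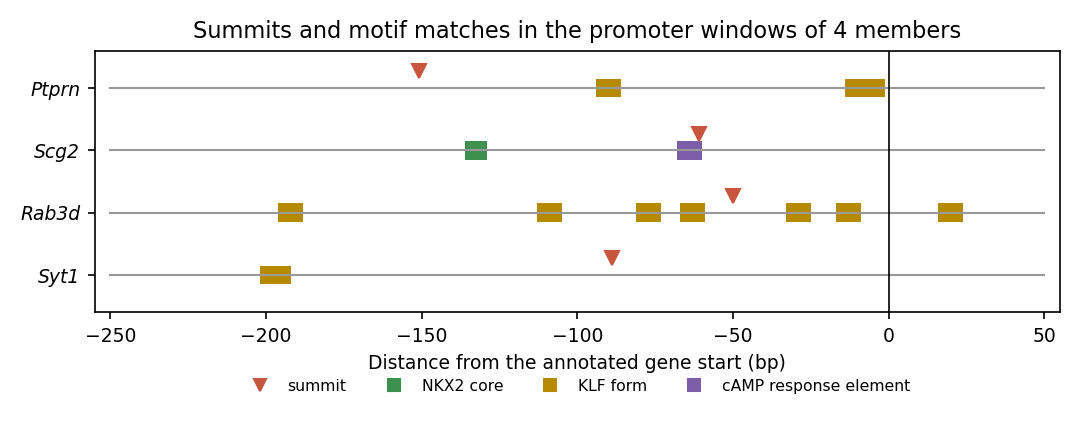
Position of the summit (triangle) and of motif matches (squares, drawn at their width) in the promoter windows of Ptprn, Scg2, Rab3d and Syt1, in bases from the annotated gene start at 0. The Scg2 summit stands on the cAMP response element, and the Rab3d window holds 7 KLF matches.

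A motif match describes the sequence and is not by itself a binding site. A promoter sequence was given for 31 members, in 38 windows, some genes having several starts. Windows of the same gene can overlap, as those of Pam do, and the shares below count windows and not genes. The NKX2 core was present in 14 of the 38 windows, 36.8%, against 45.2% of all 21263 windows of protein-coding genes, and the longer form in 6, 15.8% against 10.8%. The KLF form was present in 32 windows, 84.2% against 56.6%. The members' windows had a median GC content of 59.8%, against 56.3% overall. The cAMP response element was present in 3 member windows, 7.89% against 2.23% of all. Besides Scg2, these were Chgb, which encodes chromogranin B, and Pcsk1, and neither of these had a summit within 10 kb. A summit lay in 4 of the 38 windows, 10.5%, against 6.82% of all windows.

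Another 3 members had a summit within 1 kb of a gene end for which the strand was not given, so that start and end were not told apart. They are Syt7, a calcium sensor of granule fusion, with a score of 17.2 at 122 bases outside the gene (position 10388680 of chromosome 19), Syt4, with a score of 14.7 at 52 bases outside it (position 31447467 of chromosome 18), and Cpe, with a score of 5.94 at 172 bases inside it (position 64692937 of chromosome 8). Counted with the 4 above, 7 of 42 members, 16.7%, had a summit within 1 kb of a start, against 11.9% of all genes. Genes of similar length gave the same 11.9%. At gene starts the members were nearer the background than over whole genes.

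Most summits at the members lay inside genes, a share close to that of all summits near genes. In all, 46 distinct summits lay in or within 10 kb of the 24 genes, and 30 of them lay inside a member. For 21 of these 30 the strand was given, and 17 lay over 10 kb from the gene's nearest start. Inside any protein-coding gene lay 33 of the 46, 71.7%, against 69.9% of the 5674 summits in or near any gene. Of the 46, 12 lay within 1 kb of the start of any protein-coding gene, 26.1%, against 40.7% of the 5674 summits in or near any gene. Another protein-coding gene lay within 10 kb of 8 of the 46, 17.4%, against 29.1%.

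The scores of these summits were close to those of the list as a whole. The score is the authors' −log10 q-value against input, and serves here to rank peaks within the list. Scores ran from 2.37 to 159, with a median of 16.6, against a median of 13.7 over the 7380 placed summits and 13.5 over those near genes. Of the 46, 28 lay above the median of the list. Only 2 reached a score of 100, or 4.35%, against 5.08% of placed summits.

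**Figure D3:**
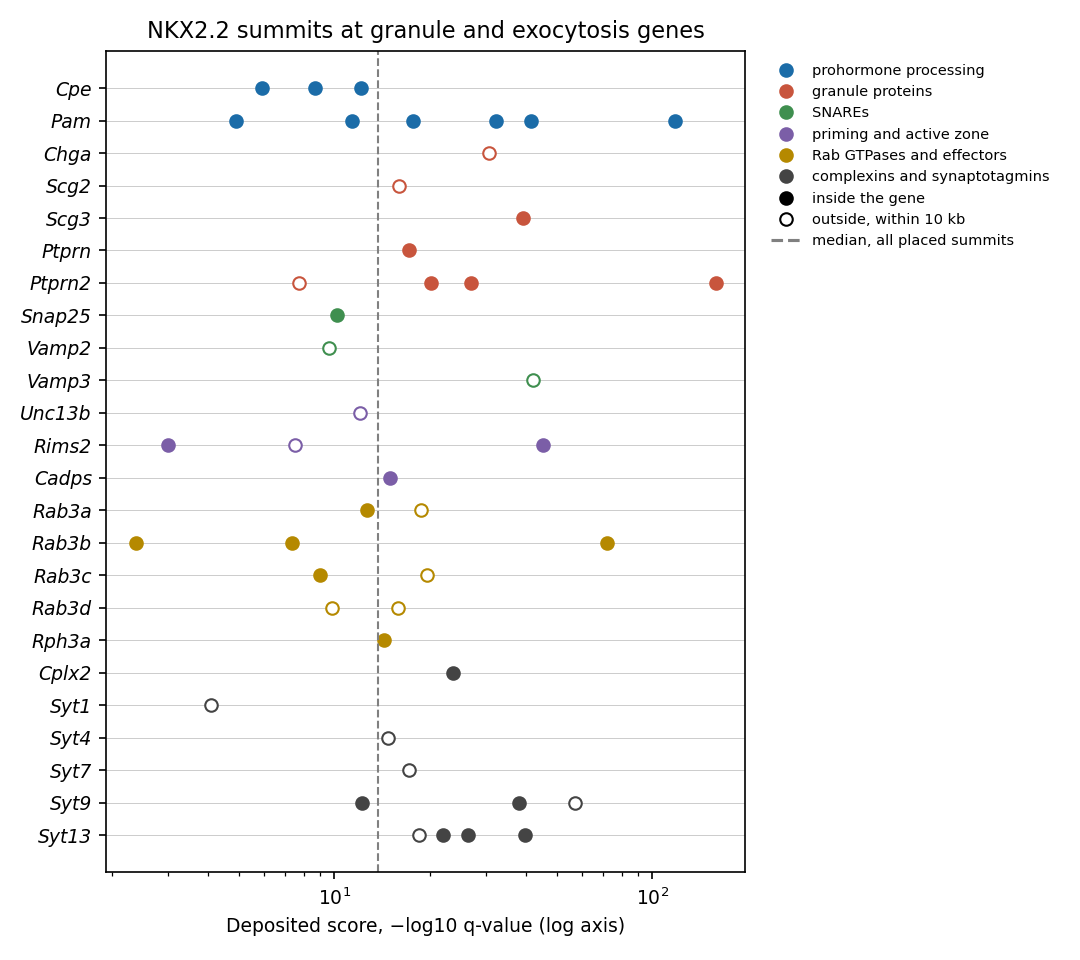
Deposited scores (log axis) of the summits in or within 10 kb of the 24 members with a summit, 1 point per summit, coloured by role. Filled points lie inside the gene and open points outside it, and the dashed line is the median of all placed summits, 13.7. Ptprn2 and Pam alone exceed 100, and Pam has the most points.

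Among the prohormone processing genes, Pam and Cpe held summits and the convertases and their partners did not. Pam (gene ID 18484, chr1:97821091-98095853) encodes the enzyme that amidates peptide C-termini, and its 6 summits were the most of any member. Genes of its length had a mean of 1.01. Its scores from the 5′ side were 11.4, 32.2, 118, 41.4, 17.7 and 4.89, and all 6 lay inside the gene, the nearest 21.8 kb from its start. The highest, at position 97918758, lay 177 kb inside and ranked 300 in the list. Cpe (gene ID 12876, chr8:64592542-64693109) encodes carboxypeptidase E, which trims the basic residues left by the convertases. Its 3 summits had low scores, 8.69, 12.1 and 5.94, and the first 2 lay close together at positions 64664355 and 64665015.

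No summit was called within 10 kb of Pcsk1, Pcsk2, Pcsk1n or Scg5. Scg5 encodes 7B2, the chaperone of the Pcsk2 convertase, and Pcsk1n encodes proSAAS, an inhibitor of the Pcsk1 convertase. The nearest summits lay 55.5 kb from Pcsk1, 87.3 kb from Pcsk2, 58.6 kb from Scg5 and 41.7 kb from Pcsk1n. Genes as long as Pcsk2 had a summit in 46.0% of cases.

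Of the granule proteins, the phogrin gene Ptprn2 (gene ID 19276, chr12:116485695-117278167) carried the highest score of any member. Its summit at position 116490820, 5.1 kb inside the gene, had a score of 159 and ranked 208. It had 3 more summits, with scores of 7.76 before the start and 20.1 and 26.9 deep in the gene, 224 and 622 kb from the start. With Ptprn, its paralogue, both genes of the IA-2 pair thus had summits, Ptprn at its start and Ptprn2 mainly inside the gene.

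Scg3 (gene ID 20255, chr9:75643366-75685959), encoding secretogranin III, which anchors chromogranin A to granule membranes, had 1 summit with a score of 39.3. It lay 15.1 kb inside the gene, at position 75668940. Chga (gene ID 12652, chr12:102554941-102565027), encoding chromogranin A, had 1 summit 3.6 kb before its start at position 102551336, with a score of 30.7. Chgb and Vgf had none, with the nearest summits 195 and 38.5 kb away.

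Of the 3 summits counted for SNARE genes, 1 lay inside its gene. Snap25, which encodes the plasma membrane SNARE of granule fusion, had 1 summit inside the gene with a score of 10.2. The summits counted for Vamp2 and Vamp3, SNAREs of the vesicle membrane, both lay at the start of another gene. At Vamp2 the summit (position 69095058 of chromosome 11) scored 9.61. It lay 2.68 kb from the gene but 50 bases from the start of Per1. At Vamp3 (gene ID 22319, chr4:151047305-151057953) the summit at position 151044884 scored 42.1. It lay 2.42 kb from the gene, 31 bases from the start of the predicted gene Gm38529 and 177 bases from that of Per3. Per1 and Per3 encode circadian clock proteins. Stx1a and Vamp8 had no summit, with the nearest 98.0 and 22.9 kb away.

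In the priming group each pair of paralogues had 1 gene with a summit and 1 without. Rims2 (gene ID 116838, chr15:39198286-39684372), a RIM protein that binds Rab3, had 3 summits. The highest scored 45.3 and lay inside the gene at position 39249414, and the others scored 7.54 and 3.0. Cadps, which encodes the priming factor CAPS, had 1 summit inside the gene with a score of 15.0, on chromosome 14, where 6.46% of genes have one. The summit counted for Unc13b, with a score of 12.0, lay 5.78 kb from the gene and 114 bases from the start of Fam214b, inside that gene. Rims1, Cadps2 and Unc13a had none, and the nearest summits lay 462, 686 and 26.5 kb away.

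All 4 Rab3 genes had summits, and neither Rab27 gene did. Together 4 of these 6 genes had one, 66.7%, against 30.8% in genes of similar length, and the split between them was not tested. Rab3b (gene ID 69908, chr4:108879070-108943324) had 3, the highest near its 3′ end at position 108941307 with a score of 71.9. The other scores in Rab3b were 2.37 and 7.37. Rab3c had scores of 19.5 at 3.01 kb before the gene and 8.99 inside it. Rab3a had a score of 12.7 inside the gene, 1.28 kb from its start. Its other summit, with a score of 18.7, lay 127 bases from the start of Mpv17l2. The other summit counted for Rab3d, with a score of 9.86, lay 7 bases from the start of Ccdc159. Each Rab3 gene kept at least 1 summit when summits were given to their nearest gene alone.

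Rab27a and Rab27b, the GTPases that also tether granules, lay 2085 and 304 kb from their nearest summits. Rph3a, which encodes the Rab effector rabphilin, had 1 summit inside the gene with a score of 14.3. Sytl4 and Sytl5, effectors of Rab27, had none. Both lie on the X chromosome, as does Pcsk1n, and 4.87% of X-linked genes had a summit.

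Of the 7 synaptotagmin genes, 5 had a summit, against 25.8% of all protein-coding genes. Together with the complexin genes it was 66.7%, against 32.2% in genes of similar length. Syt1 was counted through 1 summit, with a score of 4.09. Syt13 (gene ID 80976, chr2:92915101-92956051), a synaptotagmin that lacks calcium binding, had 4, where genes of its length had a mean of 0.335. Their scores were 18.5, 26.3, 39.9 and 21.9, all above the median of the list, and the highest lay inside the gene at position 92934458. Syt9 (gene ID 60510, chr7:107370349-107548656), a calcium sensor of fusion, had 2 summits inside the gene with scores of 12.2 and 38.0. Its highest, 57.1, lay at position 107548906, just beyond the 3′ end by 250 bases. Syt5 and Syt11 had none within 192 and 122 kb. Of the complexins, which hold the SNARE complex ready for calcium, Cplx2 (gene ID 12890, chr13:54301964-54383923) had 1 summit that scored 23.6, at position 54303872 and 1.32 kb from a start, and Cplx1 had none within 96.1 kb.

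**Figure D4:**
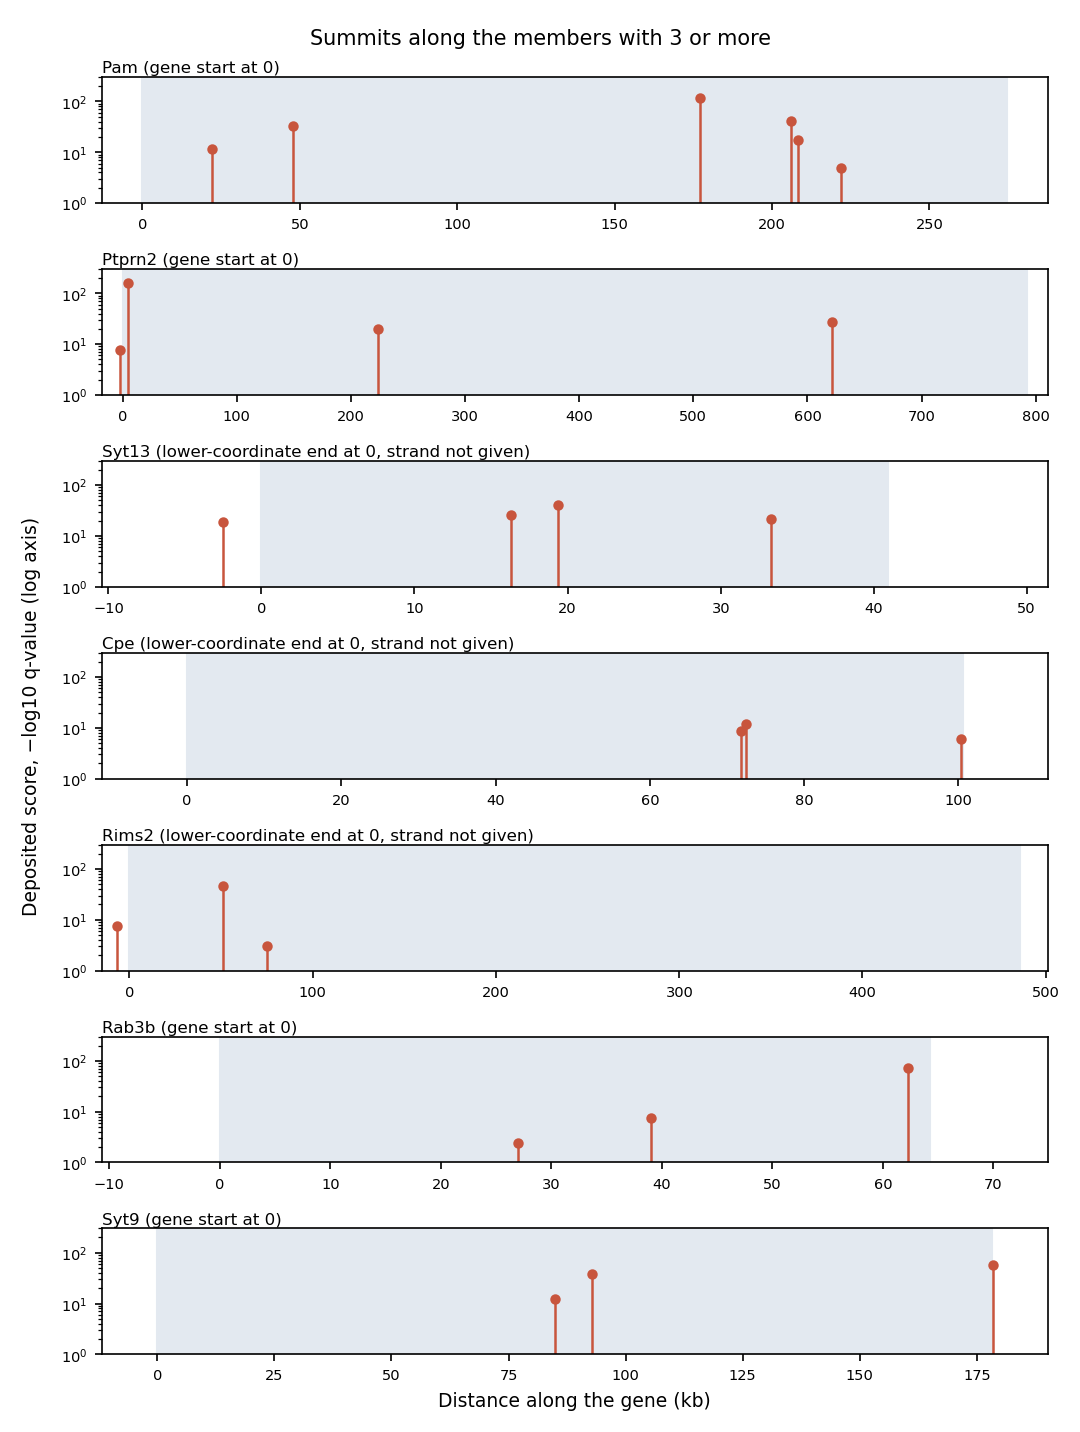
Summits (stems, height the deposited score on a log axis) along the 7 members with 3 or more, in kb. The gene is shaded, with its 5′ end at 0 where the strand is given and its lower-coordinate end at 0 for Syt13, Cpe and Rims2. Pam carries 6 summits over the gene, and the highest stem of Ptprn2 stands near its start.

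The 18 members without a summit were not narrowly missed. Taking the nearest summit of each member counted through the flank alone, the farthest was that of Unc13b, 5.78 kb from the gene. The nearest summit of an uncounted member was 22.9 kb away, at Vamp8. The median distance to the nearest summit was 110 kb over the 18 genes. It lay within 50 kb for 4 of them and within 100 kb for 9, and beyond 1 Mb for Rab27a and Sytl4.

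**Figure D5:**
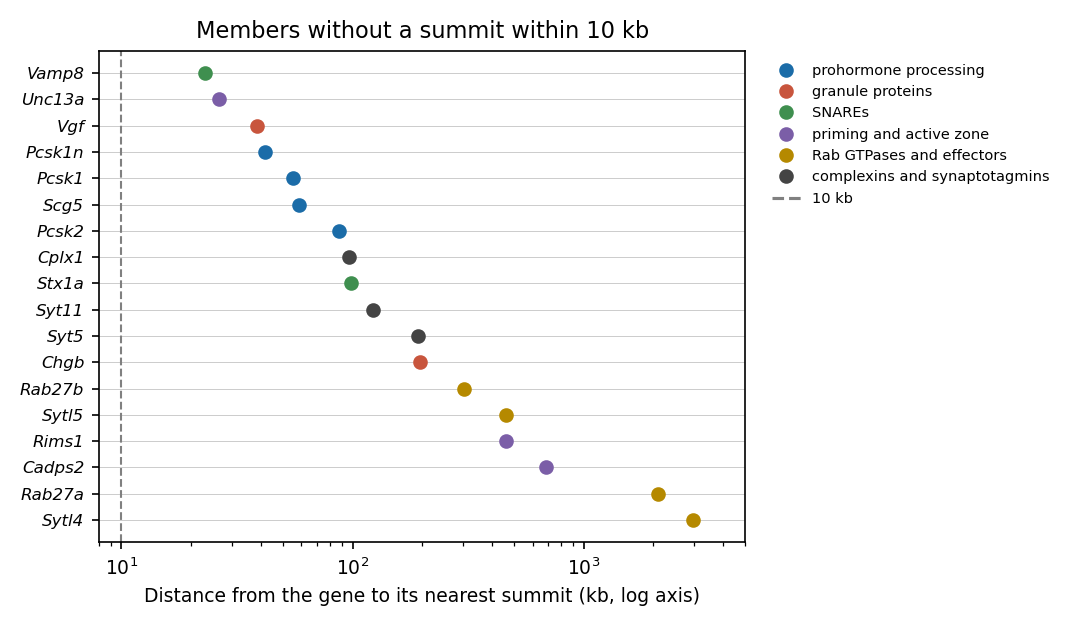
Distance from each of the 18 members without a summit within 10 kb to its nearest summit, in kb on a log axis, coloured by role, with the 10 kb limit dashed. Vamp8 is nearest at 22.9 kb, and Rab27a and Sytl4 lie beyond 1 Mb.

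To set these genes beside the rest of the pathway, 64 other genes of hormone processing, granule transport and fusion were listed by function and family. Of these, 25 had a summit in the gene or within 10 kb, 39.1%, where genes of similar length averaged 31.9%. The difference from the members' 57.1% was not tested. When each summit went to its nearest gene alone, 19 of the 64 had one, 29.7%, against 26.1% in genes of similar length. The highest scores were at Stxbp2, a Munc18 gene, with 260 at a summit 9.55 kb away, at the SNARE gene Vamp4 with 85.4, and at Rab3il1, an exchange factor for Rab3, with 78.7 at a summit 7.04 kb away. The summits counted for Stxbp2 and Rab3il1 lay outside these genes and nearer to another gene. Next came Rab3gap2, part of the GTPase-activating complex for Rab3, with 58.4.

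Over both lists, 9 of 17 synaptotagmin genes had a summit, 52.9% against 31.6% in genes of similar length. Of 7 VAMP genes 5 had one, 71.4% against 26.1%, though Vamp4 alone was the nearest gene of its summit. The 4 Unc13 and the 4 SNAP25 family genes had 2 each, against 36.4% and 27% in genes of similar length. Neither Unc13 gene with a summit was the nearest gene of that summit. The RIM, complexin, Sytl and convertase families had counts close to those of genes of similar length. They had 1, 1, 1 and 2 genes with a summit, where similar lengths gave 1.51, 1.23, 1.83 and 2.46. The 4 RIM genes and the 4 complexin genes had 1 each, 25% against 37.8% and 30.8%, and the 5 Sytl genes had 1, against 36.6%. Of the 7 convertase genes, Pcsk4 and Pcsk6 had summits, 28.6% against 35.1%, and those counted for Pcsk4 were nearer to another gene. Differences between families were not tested.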

How the data were processed

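Per the submitters' processing notes, FastQC, Bowtie2 and MACS2 were used and the build was mm10, which is GRCm38; versions are not given in the sources used here. MACS2 peak calling is named in the labels' design text, for alphaTC6 NKX2.2 ChIP (2 samples) against input (2 samples). The deposited score per summit is taken as −log10 of the q-value, which MACS2 writes in this column, and the lowest one equals a q-value of 0.00938. Duplicate handling and pooling of replicates are not given in the sources used here. The list has no value per library, so depth is unknown, and no interval or replicate test was made.

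Summit positions (start + 1) on the 19 autosomes, X and Y were set against protein-coding genes of RefSeq GRCm38.p6. None of the 256 Y-linked genes in that background had a summit within 10 kb. The 4 summits on other contigs were not used. A gene had a summit when one lay in it or within 10 kb. Strand and start sites came from a RefSeq promoter table, which matched 31 of 42 members and 17492 of 21887 genes; for the others either gene end served as the start, so that their shares at starts also count 3′ ends. The start of a gene was any start in that table or its 5′ end. The gene tables used here give no exons, so introns, exons and UTRs were not distinguished. Length was allowed for by 4 classes of equal size and by the 200 genes nearest in length, as averages without drawing genes at random. Members, lists and tests were chosen with earlier results of these data known. Every member is named; positions are given for the 10 with the highest scores and those with a summit within 1 kb of a start, and of the other pathway genes the 5 with the highest scores were to be named, of which 1 is not reported here. Other names and positions were chosen after their values were seen. Alternatives changed the score minimum, the distances, merging, chromosomes and assignment to the nearest gene. The assignment of summits was tested on simulated data. Python 3.11.15, numpy 2.4.6, pandas 2.3.3 and matplotlib 3.10.9 were used.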

Additional observations from a re-analysis of the deposited data

How the results depend on the processing

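No paired analysis was possible because replicates have no values of their own in the list, and none could be left out in turn. The number of members with a summit, 24, became 15 in the gene body alone and lay between 21 and 28 under the other 7 alternatives. With a score minimum of 10 it was 22, 52.4% against 18.2% of all genes, and Syt1 and Vamp2 were lost. When each summit went to its nearest gene alone, 21 of 42 members had one, against 19.2% of all genes and an average of 27.3% in genes of similar length. The 3 lost were Vamp2, Vamp3 and Unc13b, whose summits lie at neighbours' starts. Within 50 kb the members had 28, 66.7% against 43.8%. Leaving out chromosome 14 and the X chromosome gave 23 of 38, 60.5% against 27.7% of all genes. Members with a summit within 1 kb of a start, 7, ranged from 5 to 10, which is within 1.5 times. Summits at members, 46, were 30 in the gene body alone and 75 within 50 kb, and other pathway genes with a summit, 25, were 16 and 39 under the same 2 settings, as narrower and wider windows give by construction. Of the other pathway genes 18, 28.1%, had a summit at a score minimum of 10, against 18.2% of all genes.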

Other observations

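The summits at Vamp2 and Vamp3 lay at the starts of Per1 and Per3, 2 of the 3 period genes of the circadian clock. The other, Per2, had 3 summits in or within 10 kb, 1 or more of them within 1 kb of a gene end, its strand not being given, with a highest score of 30.8. The period genes were chosen after the values at their neighbours were seen, and no test was made.

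Over all protein-coding promoter windows of 300 bases, the NKX2 core was about as frequent where a summit lay in the window as where none did, 46.0% of 1451 windows against 45.2% of 19812. The longer NKX2 form was present in 9.44% against 10.9%. The KLF form was present in 70.6% against 55.5%, and the cAMP response element in 4.89% against 2.04%. The windows with a summit also had the higher GC content, with a median of 61.7% against 55.7%, and its part in these shares was not tested.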
